A study of Mus musculus with 4 samples.

Results

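Expression of 50 genes of the Wnt pathway was examined in mouse embryonic stem cells of strain 129SvEv that carry the substitution G784E on 1 of their Smarca4 alleles, and in cells that do not. Smarca4 encodes the motor subunit of BAF, a chromatin remodelling complex. The genes were taken from a list of pathway members by symbol, not by their values, and all 50 were among the 24428 genes of the count tables. In both groups 1 allele was wild-type with a GFP fusion. The other allele had a V5 tag and was G784E in 2 libraries (G784E) or wild-type in 2 libraries (WT). Cells were between passages 15 and 20, were grown in 15% serum with LIF and received no treatment. The labels do not say whether the replicates of a group were separate cultures, or from how many clones they came. The p-values thus set the group difference only against the scatter estimated from these libraries, and that scatter may be technical.

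Wnt proteins are secreted lipid-modified ligands. They bind Frizzled receptors together with the co-receptors LRP5 and LRP6, which stops a cytoplasmic destruction complex of AXIN, APC and GSK3 from marking beta-catenin for degradation. Stabilised beta-catenin then enters the nucleus and works with TCF and LEF factors on target genes, several of which encode feedback inhibitors of the pathway. In embryonic stem cells the pathway is known to support self-renewal, in part by relieving repression by TCF7L1.

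The libraries held 6226145 and 8895433 counts in genes for G784E replicates 1 and 2, and 7027108 and 10083442 for WT, so that 1 count stood for 0.102 to 0.164 CPM (counts scaled to a fixed library total, after TMM scaling). The 1125 olfactory receptor genes, whose products serve smell, were taken as a measure of background. Their sums, here not TMM-scaled, were larger for replicate 1 (685 CPM in G784E, 684 CPM in WT) than for replicate 2 (282 and 193 CPM). All 9 stem cell markers passed the filter on low counts, and their summed level was 3195 and 3207 CPM in G784E and 2590 and 2918 CPM in WT. None of the 9 passed edgeR's test, and 1, Nanog, had an unadjusted p under 0.05. Markers of primitive and visceral endoderm were present as well. Their 12 genes summed to 309 and 322 CPM in G784E and to 3408 and 3745 CPM in WT, and 10 of 11 tested fell. Amn, also among the 12, had at most 7 counts in any library and was not tested. For 11 feeder fibroblast markers the sums were 99.0 and 88.6 CPM in G784E and 109 and 73.2 CPM in WT, and none of 8 tested passed edgeR's test or had an unadjusted p under 0.05. Of 8 trophectoderm markers tested, 4 fell (sums 65.9 and 64.8 CPM in G784E, 129 and 130 CPM in WT). Those 4 were Eomes and the keratin genes Krt8, Krt18 and Krt19, while Cdx2, Elf5 and Gata3 did not pass. Tfap2c went the other way, at 32.4 and 30.3 CPM in G784E and 19.7 and 20.2 CPM in WT (edgeR, adjusted p = 0.215). With Tfap2c, 5 of the 8 had an unadjusted p under 0.05. Of 6 primitive streak markers 2 were tested and 1 fell, Eomes, which is also 1 of the 4 trophectoderm markers that fell. Of 6 neural markers 5 were tested and none passed, with 1 at an unadjusted p under 0.05. The part that these other cell types have in the differences given here was not tested. In bulk RNA, fewer cells of a type and less RNA per cell cannot be told apart.

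Of the 50 genes, 42 had enough counts to be tested, and 3 differed between the groups. Porcn, the acyltransferase that lipid-modifies Wnt ligands for secretion, and Rspo1, an R-spondin that potentiates Wnt signalling at the receptor, were higher in G784E. Tcf7l2, a beta-catenin-binding transcription factor, was lower. The other 39 missed the threshold used throughout, an adjusted p under 0.05 (Benjamini-Hochberg) from the quasi-likelihood test of edgeR. The 3 genes were 7.14% of the members tested, against 2.56% of all 15763 tested genes. In all genes, 1.89% were called lower and 0.672% higher. An unadjusted p under 0.05 in edgeR was found for 8 of the 42 members and for 1831 of the 15763 tested genes. The counts of such genes given by role are to be read against that share. The median log2 fold change (G784E over WT) of the 42 members was 0.14 and that of all tested genes was 0.00. Libraries of the groups did not overlap in 8 members that were lower and 10 that were higher in G784E, and the same held for 19.4% of all tested genes in each direction. The plot of changes by role shows each estimate with its interval.

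**Figure D1:**
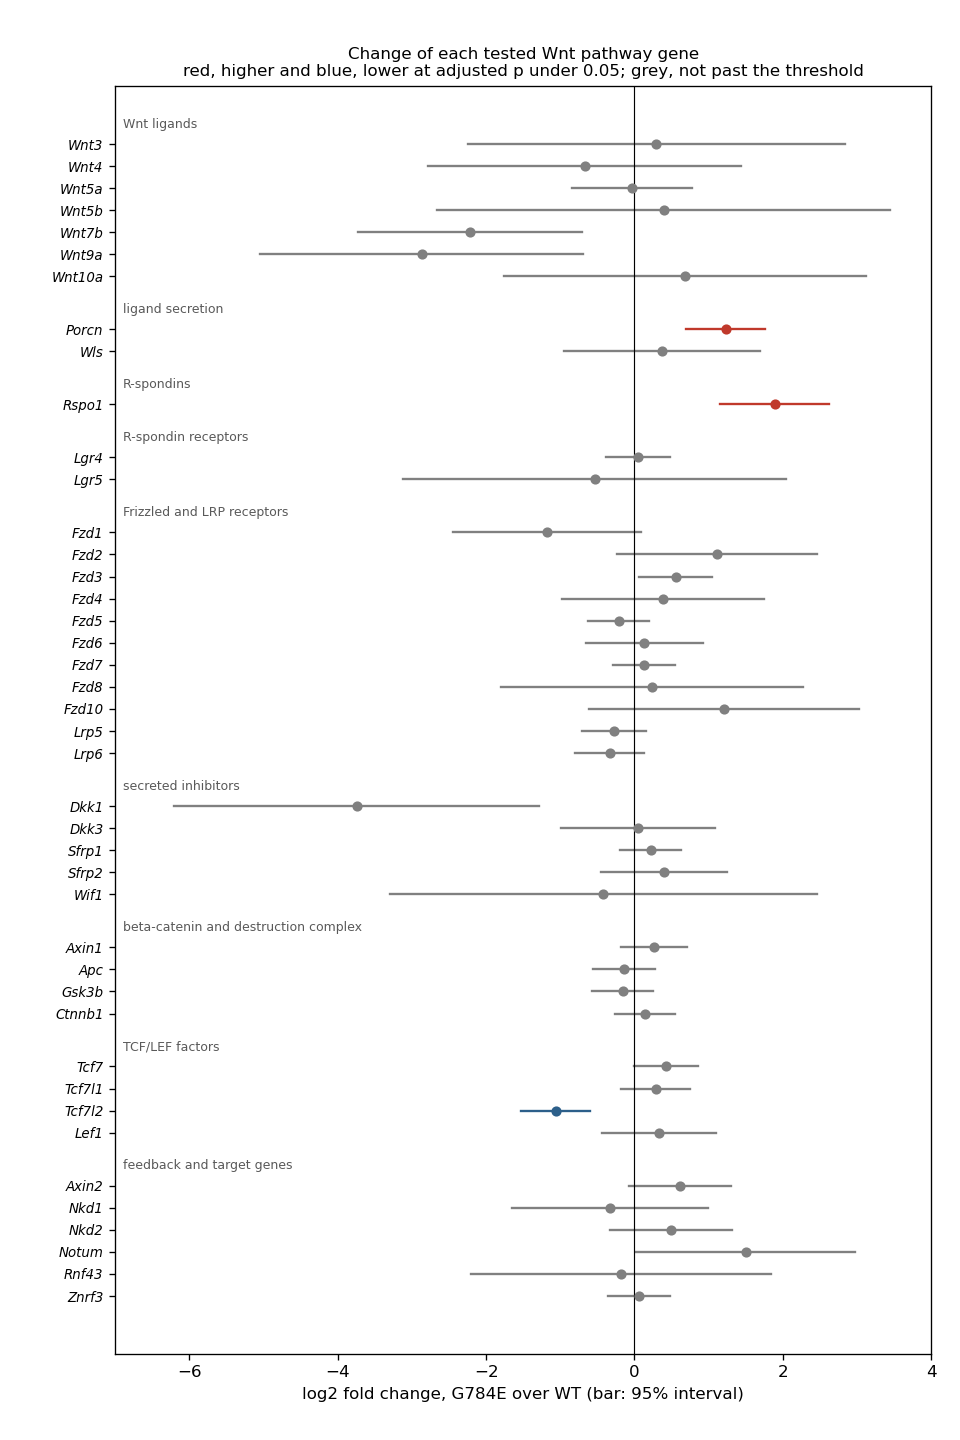
Log2 fold change of each of the 42 tested Wnt pathway genes, G784E over WT, by role, with 95% intervals from edgeR. The intervals of Porcn and Rspo1 lie above 0 and that of Tcf7l2 below it among the genes past the threshold, and genes with few counts, such as Wnt5b, have intervals several log2 units wide.

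The other 8 members, Wnt3a, Wnt6, Wnt8a, Wnt11, Rspo2, Rspo3, Fzd9 and Sp5, had 0 to 14 counts in any library and totals of 6 to 34 over the 4 libraries. They failed the filter on low counts and were not tested. To compare levels between genes, CPM was divided by the exon length of the gene. On this scale 26 of the 50 members lay above the 95th percentile of the olfactory receptor genes (0.314 to 0.899 CPM per kb, depending on the library) in all 4 libraries, 15 in some libraries and 9 in none. The gene with the highest level per kb in WT was Ctnnb1, which encodes beta-catenin, at 104 CPM per kb in WT and 115 in G784E. It was followed in WT by the receptor gene Fzd7 at 48.7, Apc at 35.2, the R-spondin receptor gene Lgr4 at 31.9, Lrp6 at 30.7 and Gsk3b at 30.2 CPM per kb. Among the 11 Wnt ligand genes of the 50, the highest level was that of Wnt7b in WT, 1.4 CPM per kb, and that of Wnt5a in G784E, 1.26 CPM per kb. Wnt2b, a ligand gene outside the 50, was higher, at 1.62 CPM per kb in WT and 2.23 in G784E. The plot of levels shows the destruction complex genes and the receptor genes Fzd7, Fzd5, Lrp5 and Lrp6 well above the background band, and the ligands below, in or just above it.

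**Figure D2:**
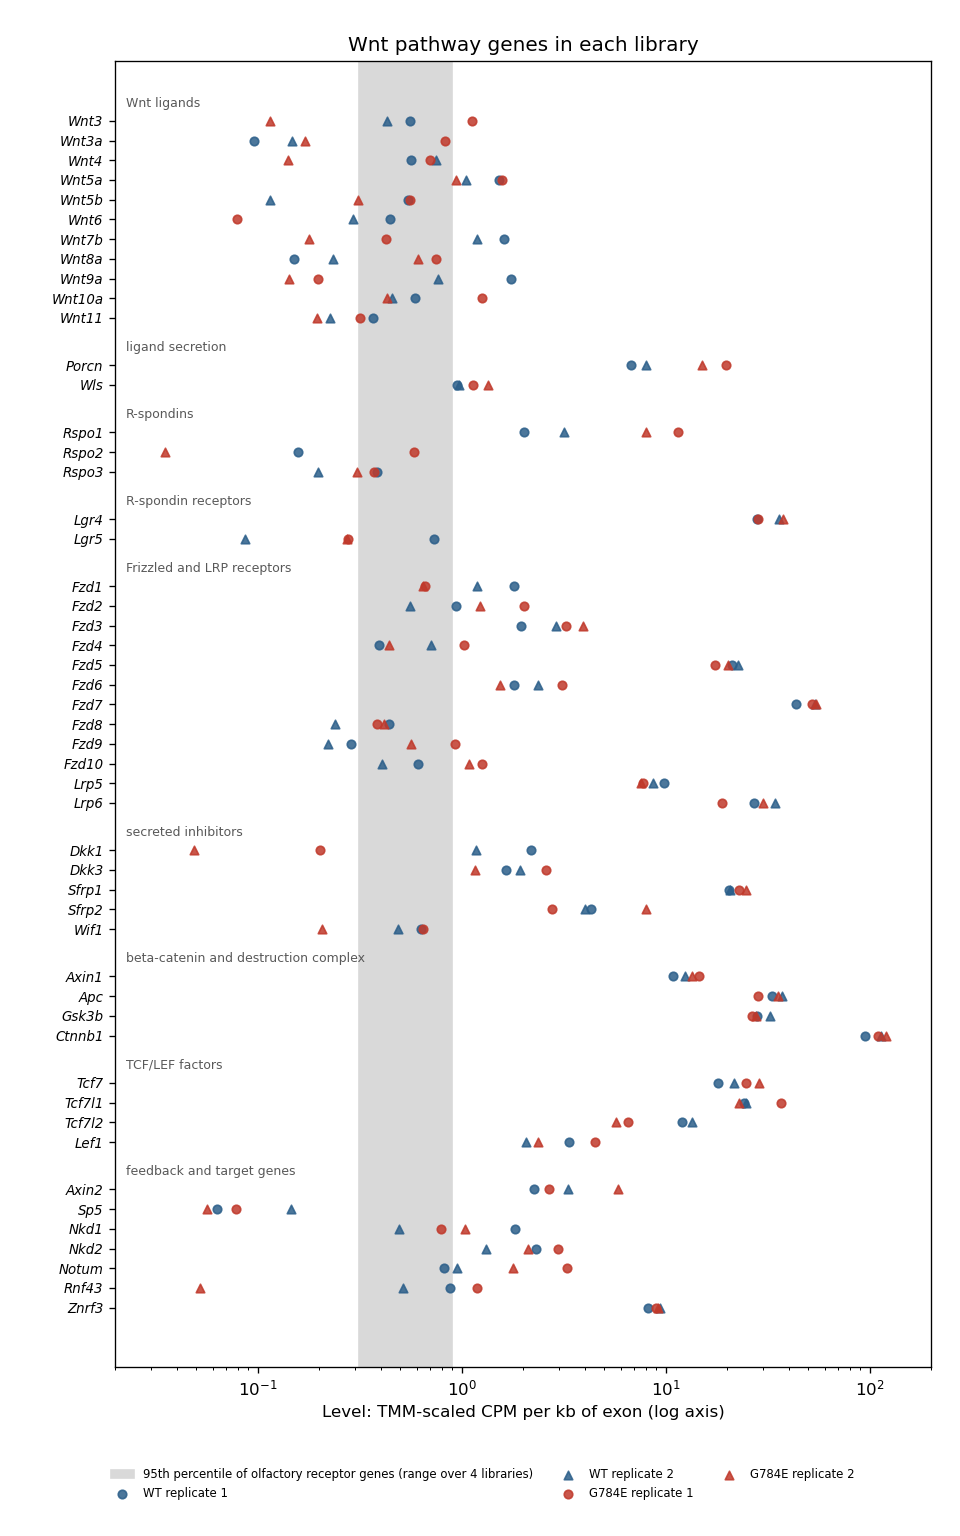
Level of the 50 Wnt pathway genes in each library, as TMM-scaled CPM per kb of exon on a log axis, by role. Circles are replicate 1 and triangles replicate 2, the grey band spans the 95th percentiles of olfactory receptor genes in the 4 libraries (0.314 to 0.899), and values of 0 (Wnt6 in G784E replicate 2 and Rspo2 in WT replicate 2) are not drawn.

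Among the 11 Wnt ligand genes, 7 were tested and none passed edgeR's test, while 2 had an unadjusted p under 0.05. Their summed level was 29.6 and 13.0 CPM in G784E and 33.7 and 23.6 CPM in WT. Wnt5a, a ligand best known for signalling that does not run through beta-catenin, stood at 11.1 and 6.60 CPM in G784E and at 10.7 and 7.41 CPM in WT. Replicate 1 was the higher library in each group and the groups overlapped, with a log2 fold change of -0.04 (SE 0.39; edgeR, adjusted p = 1.0). The 2 genes with the low unadjusted p were Wnt7b and Wnt9a, given in full here because of their values, which were known when they were picked. Wnt7b had 12 and 7 counts in G784E and 56 and 54 in WT, that is 1.96 and 0.825 CPM against 7.39 and 5.48 CPM. Its 2 G784E libraries lay below both WT libraries, and the log2 fold change was -2.22 (SE 0.73; edgeR, adjusted p = 0.135). With 1 library left out at a time, the log2 fold change of Wnt7b ran from -2.92 (without G784E replicate 1) to -1.68 (without G784E replicate 2). Wnt9a had 4 counts in each G784E library and 44 and 25 in WT, with a log2 fold change of -2.87 (SE 1.05; edgeR, adjusted p = 0.209). On the summed counts, WT was 4.85 times G784E for Wnt7b (95% interval 2.96 to 8.36) and 7.23 times for Wnt9a (3.47 to 17.4). These intervals cover counting error only and not the spread between libraries. In G784E, neither gene exceeded the 95th percentile of olfactory receptor genes.

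Wnt3, which the mouse embryo needs to form its primitive streak, had 21 and 3 counts in G784E and 13 in each WT library. The highest and the lowest value were thus in the same group. Wnt4, Wnt5b and Wnt10a had log2 fold changes of -0.67, 0.39 and 0.68 with SEs of 1.02 to 1.48, and no difference was detectable at this depth. Wnt3a, a ligand often added to stem cell cultures, had 14 and 4 counts in G784E and 2 and 4 in WT. Wnt8a had 8 and 9 counts in G784E and 2 and 4 in WT, and Wnt6 had 1 and 0 in G784E and 7 and 6 in WT.

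Of the genes that act on the ligands during secretion, Porcn was at 37.5 and 28.6 CPM in G784E and at 12.8 and 15.2 CPM in WT. Each G784E library was above each WT library. The mean was 33.0 ± 6.26 CPM in G784E and 14.0 ± 1.71 CPM in WT (SD, n = 2), a 2.34-fold rise (log2 fold change 1.23, SE 0.26; edgeR, adjusted p = 0.00681). The difference was 1.55 on the log2 scale between the libraries numbered 1 and 0.91 between those numbered 2. When WT replicate 1 was left out, Porcn missed the threshold (log2 fold change 1.11; edgeR, adjusted p = 0.158). Wls, which encodes the carrier that takes lipid-modified Wnt to the cell surface, stood at 4.25 and 5.07 CPM in G784E and 3.57 and 3.66 CPM in WT. The groups did not overlap, and the log2 fold change of 0.37 (SE 0.64; edgeR, adjusted p = 0.974) had a 95% interval from -0.95 to 1.69.

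R-spondins bind LGR receptors and thereby take the ubiquitin ligases RNF43 and ZNRF3, which remove Frizzled from the membrane, out of action. Rspo1 was at 20.9 and 14.7 CPM in G784E and at 3.70 and 5.79 CPM in WT, or 128 and 125 counts against 28 and 57. The lowest G784E library exceeded the highest WT library. The means were 17.8 ± 4.40 and 4.74 ± 1.48 CPM (SD, n = 2), a log2 fold change of 1.89 (SE 0.36; edgeR, adjusted p = 0.00237). It passed under all 14 alternatives tried, with adjusted p from 1.08e-05 to 0.046. Rspo1 supplied 65.6% and 90.6% of the counts of the 4 R-spondin genes in G784E (95% Wilson intervals 58.7 to 71.9 and 84.5 to 94.4) and 40.6% and 85.1% in WT (29.8 to 52.4 and 74.7 to 91.7), so that the share overlapped between the groups. In replicate 1 of each group most of the rest was Rspo4, a gene of the family outside the 50, with 48 and 4 counts in G784E and 28 and 4 in WT (log2 fold change 1.02, SE 1.05; edgeR, adjusted p = 0.876). Rspo2, with 12 and 1 counts in G784E and 4 and 0 in WT, and Rspo3, with 7 and 8 counts in G784E and 9 and 6 in WT, were not tested. In WT replicate 2 the 0 counts of Rspo2 allow a level of up to 0.305 CPM.

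Neither tested receptor gene of the R-spondins passed edgeR's test, nor had an unadjusted p under 0.05. Lgr4 stood at 143 and 190 CPM in G784E and 142 and 181 CPM in WT. Replicate 2 was higher in each group and the groups overlapped, with a log2 fold change of 0.05 (edgeR, adjusted p = 1.0) and a 95% interval of -0.39 to 0.48. Lgr5, a receptor and well-known Wnt target of adult stem cells, had 8 and 11 counts in G784E and 26 and 4 in WT, so that no direction could be read (log2 fold change -0.54, SE 1.25).

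The start region of Rspo1 and that of Tcf7l2 are shown because these genes passed the test. The site of Dkk1, an inhibitor described further on, holds a TCF/LEF match. Dkk1 was picked among the members with a match after its values were seen. Porcn has no entry in the table of promoters. The sequences are those of RefSeq on build GRCm38.p6, matched by symbol for 30 of the 50 members, and the count tables were made on another build, mm9. For Rspo1 (chr4:124986180-124986429, plus strand) and Tcf7l2 (chr19:55741560-55741809, plus strand) the 250 bases before the gene start are given with CG dinucleotides in capitals. For Dkk1 (chr19:30549597-30549623, minus strand) 27 bases are given with the match in capitals.
Rspo1: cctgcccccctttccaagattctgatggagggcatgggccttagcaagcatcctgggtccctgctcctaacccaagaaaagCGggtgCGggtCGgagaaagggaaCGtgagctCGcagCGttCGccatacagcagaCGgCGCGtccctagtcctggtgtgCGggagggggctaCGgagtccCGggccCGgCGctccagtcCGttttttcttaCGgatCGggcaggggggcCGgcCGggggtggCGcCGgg
Tcf7l2: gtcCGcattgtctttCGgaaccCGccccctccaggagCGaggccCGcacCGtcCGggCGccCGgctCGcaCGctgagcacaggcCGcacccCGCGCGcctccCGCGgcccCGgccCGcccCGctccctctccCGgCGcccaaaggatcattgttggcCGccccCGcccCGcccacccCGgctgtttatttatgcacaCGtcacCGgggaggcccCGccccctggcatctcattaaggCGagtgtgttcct
Dkk1: cctcccaaagCTTTGAAatcccatccc
The windows of Rspo1 and Tcf7l2 shown held 22 and 30 CG dinucleotides, against a median of 6 over the 32851 windows of the table. Among the member windows the number ran from 2 (Rnf43) to 48 (Wnt9a), and neither of these genes passed edgeR's test. A high number was thus not particular to Rspo1 and Tcf7l2. Tcf7l2 has another window in the table, at a start further downstream, with 7 CG dinucleotides, and which start these cells use was not tested. A TCF/LEF motif, CTTTGAT or CTTTGAA on either strand, was in none of the windows of Rspo1 and Tcf7l2. It was in 4 of 40 member windows (10%) and in 7.48% of all windows. The members with a match were Wnt5b, Wnt11, Dkk1 and Sp5. A match is a run of letters and was not tested for binding.

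None of the 11 tested genes for Frizzled and LRP receptors passed edgeR's test, and 1, Fzd3, had an unadjusted p under 0.05. Fzd7 stood at 235 and 248 CPM in G784E and 198 and 244 CPM in WT. Its groups overlapped, and the log2 fold change was 0.13 (95% interval -0.29 to 0.54; edgeR, adjusted p = 0.963). Lrp6 stood at 176 and 279 CPM in G784E and 254 and 321 CPM in WT, again with overlap and with a log2 fold change of -0.34 (-0.80 to 0.13; edgeR, adjusted p = 0.682). Fzd5, the receptor gene with the next level in the Frizzled family, was at 121 and 140 CPM in G784E and 146 and 157 CPM in WT. The groups did not overlap, and the log2 fold change was -0.21 (-0.63 to 0.20; edgeR, adjusted p = 0.841). Fzd3, a receptor known from planar cell polarity in neurons, was at 41.1 and 49.8 CPM in G784E and 24.8 and 37.0 CPM in WT, a log2 fold change of 0.55 (SE 0.24; edgeR, adjusted p = 0.332). Lrp5 was at 46.3 and 45.2 CPM in G784E and at 58.9 and 51.9 CPM in WT (log2 fold change -0.27, SE 0.21; edgeR, adjusted p = 0.76).

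The receptors with few reads spread more widely. Fzd1 was the lowest in log2 fold change, -1.18 (SE 0.61), and Fzd10 the highest, 1.20 (SE 0.88). Fzd2 had 45 and 38 counts in G784E and 26 and 20 in WT, with a log2 fold change of 1.11 (SE 0.65; edgeR, adjusted p = 0.578). For Fzd4, Fzd6 and Fzd8 the groups overlapped and the log2 fold changes were 0.39, 0.13 and 0.24. Divided by exon length, Fzd7 made up 63.3% and 64.5% of the summed level of the 10 Frizzled genes in G784E and 59.8% and 63.2% in WT. The share of Fzd5 was 21.4% and 23.9% in G784E and 28.9% and 26.7% in WT, with no overlap. With 2 libraries against 2, an exact permutation test of such a share cannot give a two-sided p below 0.333, so none was made.

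Secreted inhibitors keep Wnt from its receptors, the SFRP and WIF proteins by binding the ligand and DKK1 by blocking LRP5 and LRP6. None of the 5 genes passed edgeR's test, and 1, Dkk1, had an unadjusted p under 0.05. Sfrp1 was at 100 and 108 CPM in G784E and 88.9 and 90.0 CPM in WT, with no overlap and a log2 fold change of 0.22 (95% interval -0.19 to 0.63; edgeR, adjusted p = 0.835). Sfrp2 was at 5.56 and 16.0 CPM in G784E, on either side of the WT libraries at 8.58 and 8.02 CPM. Dkk1 had 3 and 1 counts in G784E and 40 and 28 in WT, that is 0.491 and 0.118 CPM against 5.28 and 2.84 CPM. It was the member with the widest distance between the groups, and was singled out for that after its values were seen. On summed counts WT was 14.2 times G784E, with a 95% interval of 5.32 to 53.8 for counting error alone. The edgeR log2 fold change was -3.74 (SE 1.19, adjusted p = 0.116), which misses the threshold. With 1 library left out at a time, the log2 fold change ran from -4.93 (without G784E replicate 1) to -2.99 (without G784E replicate 2). The fit without G784E replicate 1 leaves 1 G784E library with 1 count. In the embryo Dkk1 is known from the anterior visceral endoderm, and the endoderm markers fell in the same libraries, from 3408 and 3745 to 309 and 322 CPM in sum; their part in the result was not tested. Dkk3, a divergent member of the family, and Wif1 had log2 fold changes of 0.04 (SE 0.50) and -0.42 (SE 1.39).

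The genes for beta-catenin and its destruction complex lay close to equal in the groups, and none of the 4 passed edgeR's test or had an unadjusted p under 0.05. Ctnnb1 was at 396 and 435 CPM in G784E and at 342 and 411 CPM in WT (log2 fold change 0.14, 95% interval -0.27 to 0.55; edgeR, adjusted p = 0.947). Apc, a gene of the complex, was at 374 and 464 CPM in G784E and at 438 and 487 CPM in WT (-0.14, -0.56 to 0.27; edgeR, adjusted p = 0.949). Libraries of the groups overlapped for both genes. For the kinase gene Gsk3b the log2 fold change was -0.16 (-0.57 to 0.25) and for the scaffold gene Axin1 0.26 (-0.18 to 0.70). Libraries of the groups did not overlap for Gsk3b, lower in G784E, or for Axin1, higher in G784E. The upper ends of these 4 intervals exclude a 2-fold rise and the lower ends a 2-fold fall. They speak of RNA, and beta-catenin is controlled mainly through protein stability.

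Within the TCF/LEF family the genes did not move alike. Tcf7l2 was at 28.8 and 25.3 CPM in G784E and at 53.1 and 59.8 CPM in WT, or 176 and 215 counts against 402 and 589. Both G784E libraries were well below both WT libraries. The means were 27.1 ± 2.46 and 56.4 ± 4.75 CPM (SD, n = 2), a 2.09-fold fall (log2 fold change -1.06, SE 0.22; edgeR, adjusted p = 0.00673). The difference was -0.88 between the libraries numbered 1 and -1.24 between those numbered 2. When WT replicate 2 was left out, Tcf7l2 missed the threshold (-0.97; edgeR, adjusted p = 0.117). The endoderm markers were lower in the same libraries, and their part in the result was not tested. Tcf7, which encodes TCF1, an activator of targets, was at 64.8 and 75.0 CPM in G784E and 47.5 and 56.6 CPM in WT. The groups did not overlap, with a log2 fold change of 0.43 (SE 0.21; edgeR, adjusted p = 0.448). Tcf7l1, the repressor of the family in stem cells, was at 113 and 70.8 CPM in G784E and at 74.5 and 75.8 CPM in WT, so that the G784E libraries lay on either side of WT (0.29, SE 0.22; edgeR, adjusted p = 0.768). Lef1, itself a target of the pathway, was at 15.7 and 8.25 CPM in G784E and 11.8 and 7.21 CPM in WT (0.33, SE 0.37; edgeR, adjusted p = 0.899).

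As a share of the counts of the 4 TCF/LEF genes, Tcf7l2 was 13.0% and 14.1% in G784E (95% Wilson intervals 11.3 to 14.9 and 12.5 to 16.0) and 28.4% and 30.0% in WT (26.1 to 30.8 and 28.0 to 32.1). Per kb of exon it was 9.0% and 9.59% of the family in G784E and 20.8% and 21.9% in WT. Tcf7 and Tcf7l1 together took the rest apart from Lef1, but in unequal parts in the 2 G784E libraries. Tcf7l1 led in G784E replicate 1 with 50.7% and Tcf7 in replicate 2 with 48.0%, per kb. The plot of family shares shows the narrower Tcf7l2 segment in the G784E libraries.

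**Figure D3:**
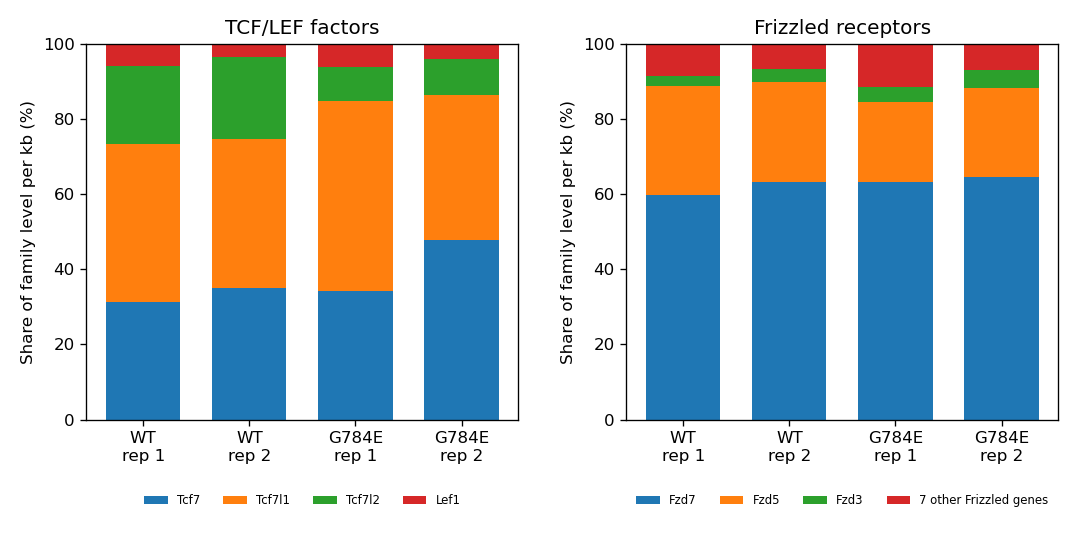
Share of each gene in the summed level per kb of the 4 TCF/LEF genes (left) and of the 10 Frizzled genes (right), in percent, for each library. Tcf7l2 takes 20.8% and 21.9% in WT and 9.0% and 9.59% in G784E, and Fzd7 takes 59.8% to 64.5% of the Frizzled level in all 4 libraries.

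The genes next to the 3 that passed were read in the same test, with neighbours taken from RefSeq gene order. Of 12 neighbours, the nearest 2 protein-coding genes on each side, 11 were tested and none passed edgeR's test. Those with the lowest adjusted p were Habp2, near Tcf7l2, with 2 and 3 counts in G784E and 45 and 26 in WT (edgeR, adjusted p = 0.105), and Tbc1d25, near Porcn, at 19.8 and 23.9 CPM in G784E and 16.2 and 12.4 CPM in WT (log2 fold change 0.62; edgeR, adjusted p = 0.356). Vti1a, next to Tcf7l2, was at 19.8 and 13.1 CPM in G784E and 23.0 and 26.7 CPM in WT (-0.61; edgeR, adjusted p = 0.366).

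Of the 7 feedback and target genes, 6 were tested and none passed edgeR's test, while 1, Notum, had an unadjusted p under 0.05. Axin2, the most widely used readout of beta-catenin activity, was at 11.5 and 24.7 CPM in G784E and 9.64 and 14.1 CPM in WT. Replicate 2 was the higher library in both groups, G784E replicate 1 fell between the WT libraries, and the log2 fold change was 0.61 (95% interval -0.08 to 1.30; edgeR, adjusted p = 0.526). It was 1.07 and passed without G784E replicate 1 (edgeR, adjusted p = 0.0137), and it was -0.035 without G784E replicate 2 (adjusted p = 0.988 in edgeR). Notum, a secreted deacylase that removes the lipid from Wnt, was at 7.36 and 4.0 CPM in G784E and 1.85 and 2.13 CPM in WT, with no overlap (1.5, SE 0.71; edgeR, adjusted p = 0.419). Annotation places an antisense gene, Notumos, over 29.0% of the exon bases of Notum, and since the strand setting is not given, reads of the pair cannot be told apart. The same limit holds for Lef1, with an antisense gene over 34.5% of its exon bases, for Ccnd1 (21.9%), Fzd5 (17.8%) and Sfrp2 (17.3%), and over smaller parts for Rspo3, Wnt11, Wnt7b, Axin2, Fzd6 and Tcf7l1. No such overlap was found for Porcn, Rspo1, Tcf7l2 or Dkk1.

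Znrf3, which encodes a ubiquitin ligase that clears Frizzled, was at 71.0 and 72.7 CPM in G784E and 64.3 and 73.7 CPM in WT (log2 fold change 0.06, 95% interval -0.36 to 0.48; edgeR, adjusted p = 0.999). Its paralogue Rnf43 had 33 and 2 counts in G784E and 30 and 23 in WT, the low value being in G784E replicate 2 alone. The dishevelled-binding inhibitors Nkd1 and Nkd2 were at 3.60 and 4.71 CPM and at 11.9 and 8.48 CPM in G784E, and at 8.32 and 2.23 CPM and 9.24 and 5.28 CPM in WT. The groups overlapped for both genes (log2 fold changes -0.33 and 0.49, SE 0.64 and 0.40). Sp5, a direct target and one of the genes with a TCF/LEF match before its start, had 1 count in each G784E library and 1 and 3 in WT, so that nothing can be said of it at this depth.

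A further 71 genes of the pathway, from other ligands to planar polarity genes, gave 60 tested genes. Of these, 1 rose and none fell in edgeR, where 0.672% of all tested genes were called higher and 1.89% lower. The median log2 fold change of the 60 genes was 0.13. The gene that rose was Myc, a growth-promoting transcription factor that is a target of beta-catenin and of LIF signalling, at 230 and 220 CPM in G784E and 55.5 and 105 CPM in WT (1.48, SE 0.24; edgeR, adjusted p = 0.000455). The cyclin gene Ccnd1, a target shared with growth factor signalling, was at 262 and 223 CPM in G784E and 129 and 160 CPM in WT. The groups did not overlap, and the adjusted p of 0.0507 in edgeR (log2 fold change 0.75, SE 0.20) fell just short of the threshold. It passed in 8 of the 14 alternatives, DESeq2 among them (0.75, adjusted p = 0.0105). The streak gene T had 13 and 9 counts in G784E and 2 and 5 in WT, and the homeobox gene Cdx1 1 and 6 in G784E and 8 in each WT library, and both were under the filter. In the dishevelled family, which relays the signal from Frizzled, none passed, and Dvl2 was at 45.2 and 50.8 CPM in G784E and 25.2 and 34.7 CPM in WT (0.68, SE 0.23; edgeR, adjusted p = 0.161). Vangl1, a planar polarity gene, was at 34.2 and 49.7 CPM in G784E and 58.5 and 83.6 CPM in WT (-0.76, SE 0.23; edgeR, adjusted p = 0.103).

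**Figure D4:**
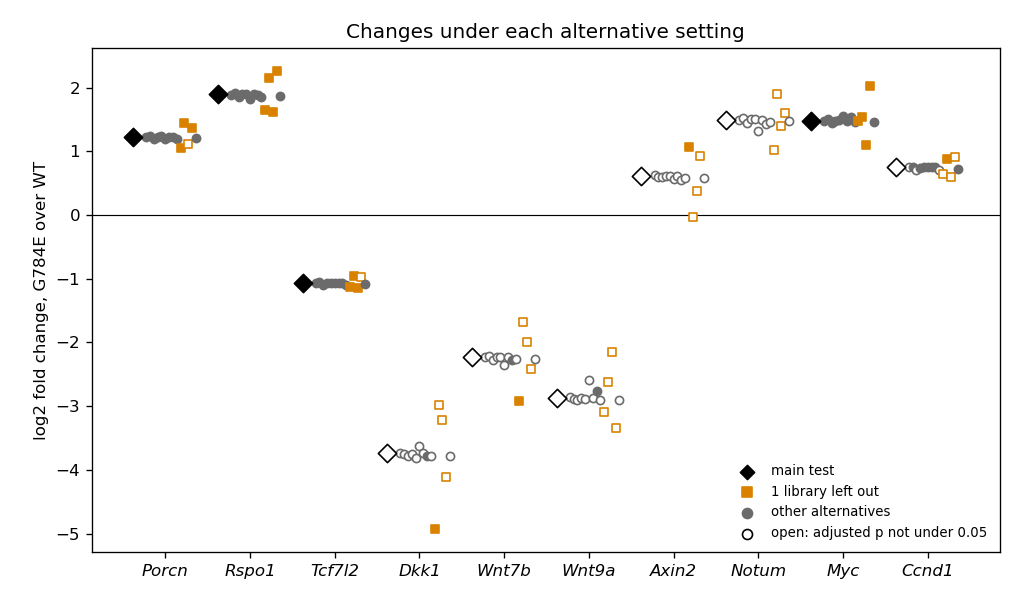
Log2 fold change (G784E over WT) of 10 genes in the main test and under 14 alternatives, with squares for a library left out and open symbols where the adjusted p was not under 0.05. Rspo1 and Myc passed throughout, Porcn and Tcf7l2 each missed the threshold with 1 WT library left out, and Axin2 ran from -0.035 to 1.07 with the library left out.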

How the data were processed

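The authors deposited 1 table per library with whole-number, raw read counts per gene. The submitters' processing notes name build mm9 and the tools HTSeq, DESeq2, Bowtie2 2.1.0 and CASAVA 1.8.2. For annotation, counting mode and strand, the setting is not stated in these sources. Summary rows, which held 83.3% to 88.7% of the reads (55.4% to 61.8% not uniquely placed), were left out, so reads shared by close gene copies are lost. A floor of 3 counts was 0.305 to 0.491 CPM. The Wilson intervals, the intervals on summed counts and the floors cover counting error only. The edgeR intervals also include the estimated spread between libraries.

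Counts were tested with edgeR 4.0.16 in R 4.3.3 (quasi-likelihood, TMM scaling, group alone, 2 residual degrees of freedom) after filterByExpr (minimum count 10, total 15), which kept 15763 of 24428 genes, with Benjamini-Hochberg adjustment over all of them. To the residual degrees of freedom the test adds 21.3 prior ones, estimated across the tested genes. The SE is the log2 fold change over the square root of F. Exon lengths came from GENCODE M21 (GRCm38), by symbol. By rule, values per library are printed for members past the threshold, the 2 members of each role with the highest mean level, 9 beta-catenin targets, and Myc, Ccnd1, T and Cdx1; the other genes so printed were picked after their values were seen. The alternatives changed the scaling (RLE, upper quartile), the filter (none, or 1 CPM in 2 libraries with 50 counts), the tool (DESeq2 1.42.0, limma-voom 3.58.1), the prior (robust) or the design (replicate block), dropped Rn45s or 1 library at a time, or, added after seeing the data, kept only genes above the olfactory background. The procedures were also run on simulated counts, drawn independently for each library from the dispersions fitted to these data. Such counts carry no deviation shared between libraries, so they cannot show that the calls hold here. Members, lists and tests were chosen with earlier results of these data known. Replicates within a group differed by more than sampling noise (chi-square per degree of freedom 15.4 in G784E and 9.22 in WT).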

Additional observations from a re-analysis of the deposited data

How the results depend on the processing

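Porcn, Rspo1 and Tcf7l2 kept their direction under the 14 alternatives and passed in all of them, except Porcn without WT replicate 1 and Tcf7l2 without WT replicate 2. Of 42 tested members, 21 kept their sign throughout. Leaving out 1 library at a time leaves a single one in that group, taken to be as variable as those of the other; all called genes ran from 185 to 839 (156 to 532 lower, 29 to 307 higher, against 298 and 106), members called lower from 0 to 3 and higher from 1 to 3, and other pathway genes called lower from 0 to 1 and higher from 1 to 4. Ccnd1 joined Myc, making 2 other pathway genes higher, with upper-quartile scaling, the stricter filter, DESeq2, limma-voom, the robust prior and among genes above background. Limma-voom called 186 genes higher in all, and 1 other pathway gene lower, Vangl1.

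The replicate numbers are shared by label only. Across 15763 genes, the difference of replicate 1 from replicate 2 correlated between G784E and WT with Pearson r 0.48, and no label says what the numbers share. The replicate block gave 1204 called genes, 658 lower and 546 higher. It called 4 members lower (4.17% of all genes were), adding Dkk1, Wnt7b and Wnt9a (adjusted p = 0.00568, 0.0118 and 0.0248 in edgeR). Of the other pathway genes it called 1 lower and 4 higher, where 3.46% of all genes were called higher.

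All sign changes were in members that did not pass edgeR's test with the 4 libraries. Under limma-voom the log2 fold change was -0.66 for Wnt3, 0.37 for Lgr5, -0.033 for Fzd6, -0.18 for Dkk3 and 0.13 for Nkd1; with the replicate block -0.18 for Wnt3 and -0.043 for Dkk3; with no filter -0.011 for Dkk3. With a library left out, values ran from -2.04 to 1.19 (Wnt3), -2.19 to 0.11 (Wnt4), -0.43 to 0.32 (Wnt5a), -0.35 to 1.85 (Wnt5b), -0.25 to 1.29 (Wnt10a), -0.15 to 0.26 (Lgr4), -1.39 to 1.64 (Lgr5), -0.31 to 0.91 (Fzd4), -0.43 to 0.59 (Fzd6), -0.014 to 0.29 (Fzd7), -0.15 to 0.74 (Fzd8), -0.61 to 0.54 (Dkk3), -0.56 to 0.97 (Sfrp2), -1.40 to 0.22 (Wif1), -0.29 to 0.024 (Apc), -0.068 to 0.61 (Tcf7l1), -0.18 to 0.75 (Lef1), -0.035 to 1.07 (Axin2), -0.99 to 0.89 (Nkd1), -3.64 to 0.80 (Rnf43) and -0.037 to 0.16 (Znrf3). The cause was not tested. Depth limits the low members: 8 were under the filter, and 24 did not exceed the olfactory background in every library.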
